A study of Zea mays with 8 samples.

Results

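The genes described here are the dehydrin and late embryogenesis abundant (LEA) genes of the maize GeneChip, an Affymetrix array that reads a transcript through a group of short oligonucleotides called a probe set. They were chosen by name: a probe set belonged if a symbol or synonym of its gene was dhn followed by a number or contained Lea. The rule found 5 of 17621 probe sets and 3 of 1108 named genes. The genes are dhn1 (LOC542373, also called rab17 and lea2) on chromosome 6, dhn2 (LOC542251, also called dehydrin3) on chromosome 4, and a4Lea (LOC732742) on chromosome 10. A match of Lea inside LEAFY-like, a synonym of fl1, was not counted.

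The samples were pools of whole above-ground tissue of maize seedlings, inbred background B73, cut 11 days after planting. There were 4 pools of DpDf (duplicate-deficient) seedlings and 4 pools of their wild-type siblings, each of 12 plants taken from the 30 genotyped per replicate. DpDf plants, derived from the translocation T5-6b, have a translocated chromosome in place of a normal chromosome 6. They hold 3 copies of nearly the whole chromosome 5 short arm, and the translocated homologue is missing the tip of chromosome 6. Duplication and deficiency occur in the same plants and cannot be told apart. Plants of both genotypes came from selfed DpDf plants and were sorted by the marker bnlg161 next to the chromosome 5 break. Replicates 1 and 3 came from seed source 49647-3self and replicates 2 and 4 from 49646-1self, and the pools of one replicate number were drawn from the same sibling seedlings. Pools are numbered by replicate. In pools of whole shoots, fewer cells of a type and less RNA per cell cannot be told apart.

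LEA proteins are very hydrophilic proteins that accumulate late in seed development, when the embryo dries, and in vegetative tissue under drought, cold or salt. Dehydrins are a family of LEA proteins marked by a lysine-rich repeat, and they are thought to protect membranes and enzymes when cells lose water. In maize, dhn1 (rab17) is the classic gene induced by abscisic acid (ABA), and its promoter is bound by the transcription factors DBF1 and DBF2. The annotation used here gives no role for a4Lea beyond its name.

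None of the 5 probe sets passed the test between DpDf and wild-type pools. The test was limma's moderated fit on log2 intensity with genotype as its term, and a probe set was called at an adjusted p under 0.05, with Benjamini-Hochberg adjustment over 12335 probe sets. That fit called 601 of those probe sets, 4.87 percent, of which 497 (4.03 percent) were higher in DpDf and 104 (0.843 percent) lower. All 5 member probe sets were bright enough to enter the fit, which left out probe sets with a mean intensity under 27.0. At an unadjusted p under 0.05, 1 of the 5 (a4Lea) would count, where 17.0 percent of all probe sets did. Adding replicate number as a block gave 0 member calls as well, against 10.2 percent of all probe sets (6.81 percent higher and 3.35 percent lower). With that block, the smallest unadjusted p values of members in limma were 0.0589 for a4Lea and 0.0934 for dhn1.

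dhn1, the ABA-induced dehydrin gene, varied widely between pools of both genotypes. Its intensity was 35.8, 40.4, 45.1 and 92.0 in DpDf pools 1 to 4, against 17.9, 44.9, 52.3 and 39.1 in wild-type pools 1 to 4. The brightest pool was DpDf replicate 4 and the dimmest was wild-type replicate 1, which lay below the filter, while the other 6 pools lay close together and the genotypes overlapped. On the log2 scale the means were 5.63 ± 0.61 in DpDf and 5.16 ± 0.69 in wild type (SD, n = 4 pools each). The log2 difference, DpDf minus wild type, was 0.47 (SE 0.37, 95% interval -0.37 to 1.30, limma adjusted p = 0.581), a fold of 1.38 with an interval of 0.77 to 2.47. Exact permutation over all 70 ways to assign the pools gave a two-sided p = 0.457, where the smallest possible value is 0.0286. That permutation and that interval do not use the replicate pairs. With replicate number as a block the 95% interval was -0.10 to 1.03 (limma adjusted p = 0.276). Exact sign flips over the 4 pairs gave p = 0.5, where the smallest possible value is 0.125.

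By replicate pair, dhn1 did not move one way. The log2 difference was 1.00 in pair 1 and 1.24 in pair 4, which come from different seed sources, against -0.15 in pair 2 and -0.22 in pair 3. In pair 1 the gap came with the low wild-type pool, and in pair 4 with the high DpDf pool. Without DpDf replicate 4 the difference was 0.17 (limma adjusted p = 0.874), and without wild-type replicate 1 it was 0.13 (limma adjusted p = 0.865). Its pooled SD within genotypes, 0.652, was larger than that of 98.3 percent of the 599 tested probe sets with a mean log2 value within 0.25 of its own, whose median SD was 0.168.

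**Figure D1:**
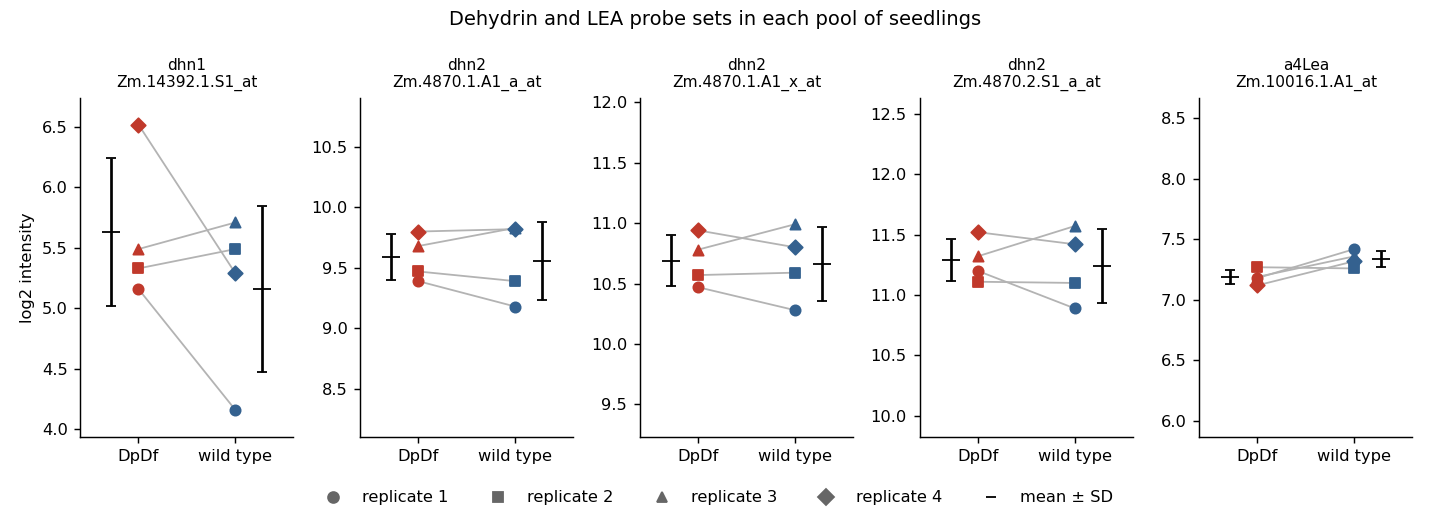
Log2 intensity (vertical axes, each spanning the same range of log2 units) of the 5 dehydrin and LEA probe sets in DpDf pools (red) and wild-type pools (blue). Grey lines join pools of one replicate number, and black bars give the mean and SD of 4 pools. dhn1 spreads most, its extremes being DpDf replicate 4 at 92.0 and wild-type replicate 1 at 17.9, while a4Lea pools lie close together.

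dhn2, the second dehydrin gene, was read by 3 probe sets, and all of them gave nearly equal means in both genotypes. Zm.4870.2.S1_a_at measured 2348, 2212, 2557 and 2937 in DpDf pools 1 to 4, against 1901, 2188, 3039 and 2743 in wild-type pools 1 to 4. The lowest and the highest pool were both wild type, so the DpDf range lay inside the wild-type range. The log2 difference of this probe set was 0.04 (SE 0.15, 95% interval -0.29 to 0.37, limma adjusted p = 0.921), a fold of 1.03 with an interval of 0.82 to 1.29.

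The other dhn2 probe sets gave a similar order of pools. Zm.4870.1.A1_a_at had 670, 711, 819 and 894 in DpDf pools 1 to 4, against 580, 672, 911 and 901 in wild-type pools 1 to 4. Zm.4870.1.A1_x_at, an x-type set whose probes may also match other transcripts, had 1423, 1520, 1763 and 1970 in DpDf pools 1 to 4, against 1241, 1538, 2027 and 1782 in wild-type pools 1 to 4. In both, wild-type replicate 1 was again lowest and wild-type replicate 3 highest. Each differed by 0.03 on the log2 scale (SE 0.16 and 0.15, limma adjusted p = 0.949 and 0.947). Pearson's r between the 3 probe sets over the 8 pools ran from 0.961 to 0.968, and the sets are annotated to the same gene.

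Pairs of dhn2 differed in sign, and its 3 probe sets had the same sign in pairs 1 and 3 but not in pairs 2 and 4. In replicate pair 1 DpDf was higher by 0.20 to 0.31, and in pair 3 it was lower by a log2 difference of -0.25 to -0.15, although both pairs come from seed source 49647-3self. In pairs 2 and 4 the differences lay between -0.02 and 0.15. The exact permutation p was 0.83 for Zm.4870.2.S1_a_at, and 0.914 and 0.971 for the other probe sets. The 95% intervals of the 3 probe sets ended at 0.37 to 0.38 in the fit with genotype alone. With the replicate block they were narrower and ended at 0.19 to 0.23. In both fits the ends lay below 0.58, the log2 ratio of 3 copies to 2. The interval of dhn1 held both 0 and 0.58. Neither gene lies in the duplicated segment, so 0.58 only marks a size here and is not a value expected for them.

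a4Lea had lower values in DpDf in 3 of 4 pairs, by a small amount that did not pass the adjusted threshold. Its intensity was 144.7, 154.1, 145.7 and 139.0 in DpDf pools 1 to 4, against 171.3, 153.4, 164.3 and 159.6 in wild-type pools 1 to 4. The DpDf pool of replicate 2 was the highest of its genotype and the wild-type pool of replicate 2 the lowest of its own, and they crossed, which is the only overlap between the groups. DpDf lay wholly below wild type for 4.8 percent of tested probe sets. For comparison, 43.8 percent of all tested probe sets were lower in DpDf in at least 3 pairs.

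The log2 means of a4Lea were 7.19 ± 0.061 in DpDf and 7.34 ± 0.067 in wild type (SD, n = 4 pools each). The log2 difference was -0.15 (SE 0.068, 95% interval -0.30 to -0.001), a fold of 0.90, with an unadjusted p of 0.0489 and an adjusted p of 0.292 in limma. The exact permutation p was 0.0571. By pair the log2 differences were -0.24, 0.01, -0.17 and -0.20 in replicates 1 to 4, and exact sign flips over the 4 pairs gave p = 0.25, where the smallest possible value is 0.125. Its pooled SD of 0.0643 was larger than that of only 5.03 percent of the 1093 probe sets of similar level, so its small difference was measured against an unusually narrow spread.

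**Figure D2:**
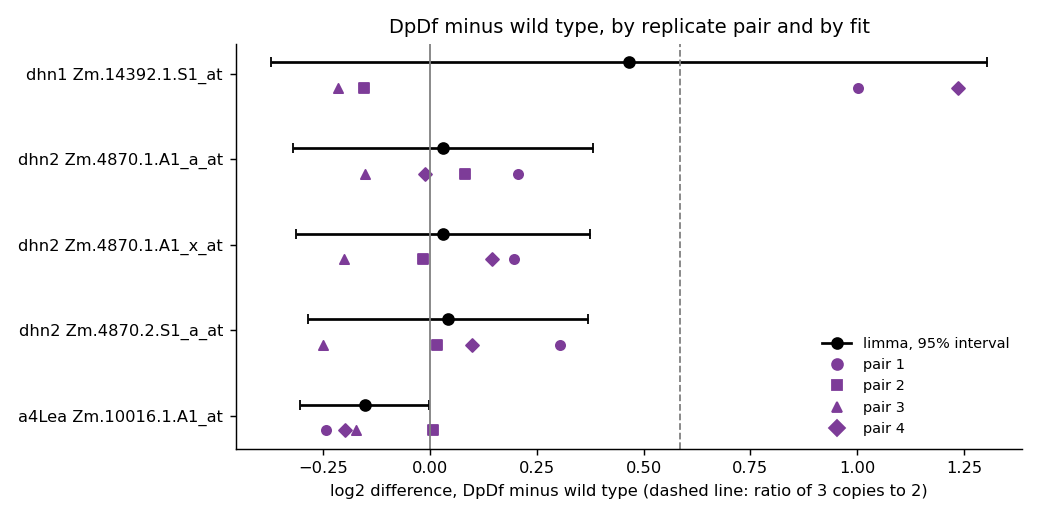
Log2 difference, DpDf minus wild type (horizontal axis), of each dehydrin and LEA probe set. Black points and bars give the limma estimate with its 95% interval, and purple symbols give the 4 replicate pairs; the dashed line is the log2 ratio of 3 copies to 2. dhn1 pairs split between -0.22 and 1.24, and 3 of 4 a4Lea pairs lie below 0.

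The variation of the members lay in different places. For dhn2, replicate number held 78.4 to 91.3 percent of the sum of squares over the 8 pools, and genotype held 0.447 to 0.946 percent. For dhn1, replicate number held 56.6 percent, genotype 14.5 percent and the rest 28.9 percent. For a4Lea the order was turned round, with 65.2 percent for genotype and 9.4 percent for replicate number. The medians over all tested probe sets were 51.6 percent for replicate number and 15.6 percent for genotype. These shares describe 8 pools and carry no test. Replicate number has more levels than genotype, so by chance alone it would hold a larger share.

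Both dehydrin genes had their lowest replicate mean in replicate 1 and higher ones in replicates 3 and 4. Averaged over the genotypes, dhn1 had log2 values of 4.66, 5.41, 5.60 and 5.91 in replicates 1 to 4. Zm.4870.2.S1_a_at of dhn2 had 11.04, 11.10, 11.44 and 11.47 in the same order. The range of these means, 1.25 for dhn1 and 0.43 for this dhn2 probe set, was larger than either genotype difference. For a4Lea the range was 0.08, smaller than its genotype difference. Replicate means rest on fewer pools than genotype means and there are more of them. By chance alone their range would exceed a genotype difference, so this comparison carries no test.

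**Figure D3:**
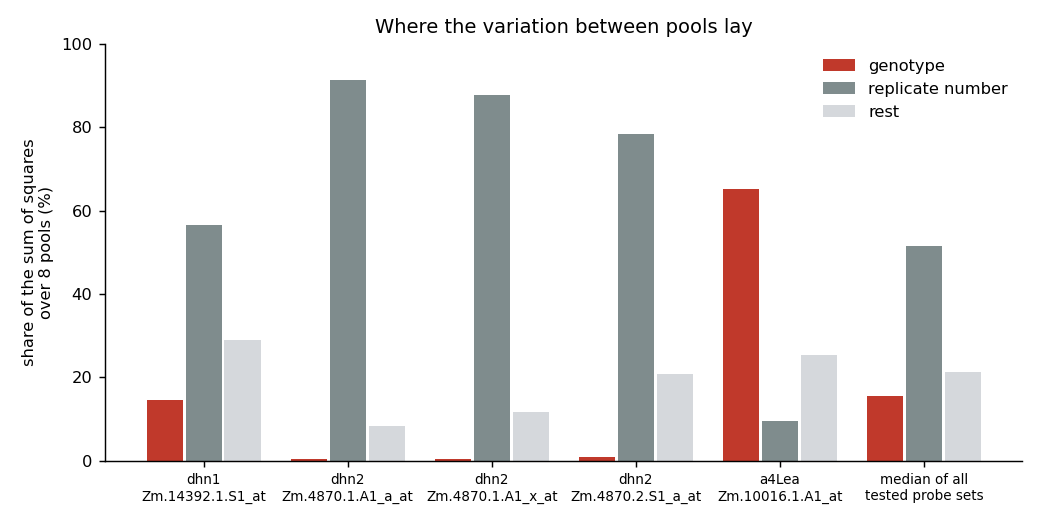
Share of the sum of squares over 8 pools (vertical axis, percent) held by genotype (red), replicate number (dark grey) and the rest (light grey) for each dehydrin and LEA probe set, and the median over all 12335 tested probe sets. Replicate number leads for dhn1 and dhn2, and genotype leads for a4Lea at 65.2 percent.

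Seed source did not separate the members' differences. For dhn1 the log2 difference was 0.39 in seed source 49647-3self alone and 0.54 in 49646-1self alone, with 2 pools per genotype in each. For a4Lea it was -0.21 in 49647-3self and -0.10 in 49646-1self. For dhn2 the within-source values of the 3 probe sets lay between -0.002 and 0.06. The genotype by seed source term of limma called 0 of the 5 members (adjusted p = 0.9996 for each, lowest unadjusted p = 0.43), and 0.0 percent of all tested probe sets, 247 of which had an unadjusted p under 0.05. With seed source as a block, no member was called.

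A measure of RNA quality differed between the genotypes. The 3' minus 5' log2 difference was averaged over 7 pairs of maize control probe sets for both ends of a transcript, some of which share a gene name. It was 1.10, 0.90, 0.75 and 0.79 in DpDf pools 1 to 4, against 0.59, 0.78, 0.56 and 0.71 in wild-type pools 1 to 4. With it as a covariate, the log2 differences were 0.71 for dhn1, 0.18 to 0.23 for dhn2 and -0.13 for a4Lea, and none was called (limma adjusted p = 0.848 to 0.942). The SE of the dhn2 differences was then 0.205 to 0.213. In that fit the dhn2 probe sets are therefore not bounded below 0.58.

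The tissue had the markers of green shoot. All 8 green leaf markers on the array were measured, and rbcs1, the small subunit of Rubisco, read 15320 to 15500 in DpDf pools and 13750 to 14730 in wild-type pools. All 8 had a higher mean in DpDf, with 0 called (limma unadjusted p under 0.05 for 4) and a summed intensity of 68700 to 79200 in DpDf, against 56900 to 71800 in wild type. With the replicate block 2 of them were called higher, psad1 (0.47, limma adjusted p = 0.00466), which lies in the duplicated segment, and mdh6 (0.23, limma adjusted p = 0.0489). Of 5 seed storage markers, all 5 of which are also among the seed maturation genes, 4 lay below the filter: glb1, glb2 and o2 read under 10 in every pool and so did ole1, an oleosin gene. The remaining one, zp27, a zein gene, differed by -0.10 on the log2 scale. Of 5 root markers 3 lay below the filter, and 1 of the other 2, mir3 (LOC100037824), was called lower (log2 difference -0.53, limma adjusted p = 0.00755). The other, a gene also named mir3, read brighter, at 845.4 to 1031 in DpDf and 970.1 to 1066 in wild type. It differed by -0.11 (limma adjusted p = 0.494), and a further mir3 probe set differed by -0.20 (limma adjusted p = 0.245). The summed intensity of all 5 root markers was 1140 to 1290 in DpDf, against 1410 to 1460 in wild type. The 3 shoot meristem markers, which include kn1, had a summed intensity of 335 to 408 in DpDf, against 381 to 544 in wild type, and 0 were called (unadjusted p under 0.05 for 0). With the replicate block kn1 (-0.29, limma adjusted p = 0.0387) and lg3 (-0.53, limma adjusted p = 0.0492) were called lower. The remaining one, fea2, did not differ (0.0, limma adjusted p = 0.98 with the block). The part of these levels in the members' values was not tested.

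The 3 genes lie outside the duplicated segment. Among the tested genes of its chromosome, dhn1 was number 44 of 79 on chromosome 6, with elfa2 before it (-0.08, SE 0.067) and elfa5 after it (0.05, SE 0.045). Chromosome 6 is the one whose tip is missing from the translocated homologue. The extent of that tip was not determined here, so the place of dhn1 relative to it is known only from this order. dhn2 was number 49 of 98 on chromosome 4, between PIP1-3 (-0.07) and HMG11 (0.08). a4Lea was number 8 of 60 on chromosome 10, between ChlI (0.13) and GalDH (0.05). None of these 6 neighbours was called (limma adjusted p = 0.436 to 0.786). The median log2 difference was -0.04 over 834 placed genes outside the segment and 0.47 over the 51 genes within it. These medians carry no test, because the segment's end came from an earlier analysis of the same data.

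The named genes whose pattern over the 8 pools was most like dhn1 were opr1, acco20, meatpase, PR-5 and cpi2, with Pearson's r from 0.943 to 0.963. opr1 encodes an oxophytodienoate reductase, acco20 an ACC oxidase of ethylene synthesis, PR-5 a pathogenesis-related protein and cpi2 a cysteine protease inhibitor. opr1 read 58.9, 76.3, 85.9 and 139.4 in DpDf pools 1 to 4, against 25.5, 62.0, 81.4 and 72.9 in wild-type pools 1 to 4, with the same highest and lowest pools as dhn1. Without the 2 pools farthest from the median of dhn1, which are these extremes, r over the remaining 6 fell to between 0.235 and 0.687. Spearman's rho, a correlation of ranks, was 0.905 over all 8 pools for opr1 and 0.738 to 0.786 for the other genes. Leaving out the extremes narrows the range, which by itself can lower r. How far the likeness rested on those pools therefore cannot be told. None of the 5 genes was called (limma adjusted p = 0.435 to 0.844).

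For dhn2 the most similar genes were LOC542607, GST25, GIF3, AO2 and core3ft, with r from 0.898 to 0.951. GST25 is a glutathione S-transferase gene and AO2 an aldehyde oxidase gene. GST25 read 66.6, 50.9, 81.2 and 96.8 in DpDf pools 1 to 4, against 26.8, 64.5, 119.7 and 117.2 in wild-type pools 1 to 4. As in dhn2, the lowest pool was wild-type replicate 1 and the highest wild-type replicate 3. Without the 2 most extreme pools r ran from 0.719 to 0.932.

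For a4Lea they were K2, MZPPT1, ROA4, cfm6 and rs2, with r from 0.913 to 0.981 and, without the 2 most extreme pools, from 0.776 to 0.951. rs2 (rough sheath2) is a repressor of knotted-like homeobox genes. K2 read 96.5, 114.2, 94.0 and 86.4 in DpDf pools 1 to 4, against 141.4, 104.5, 123.4 and 112.8 in wild-type pools 1 to 4, so that pair 2 again had the opposite sign. All 5 means were lower in DpDf, with log2 differences from -0.49 for ROA4 to -0.15 for rs2, and none was called (limma adjusted p = 0.111 to 0.411). These values of r are descriptions picked as the highest among 919 named genes over 8 pools, and carry no p.

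Among the members themselves, dhn1 and dhn2 had r = 0.789 over the 8 pools (0.51 without the 2 extreme dhn1 pools). dhn1 and a4Lea had r = -0.694, which turned to 0.536 without those 2 pools.

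**Figure D4:**
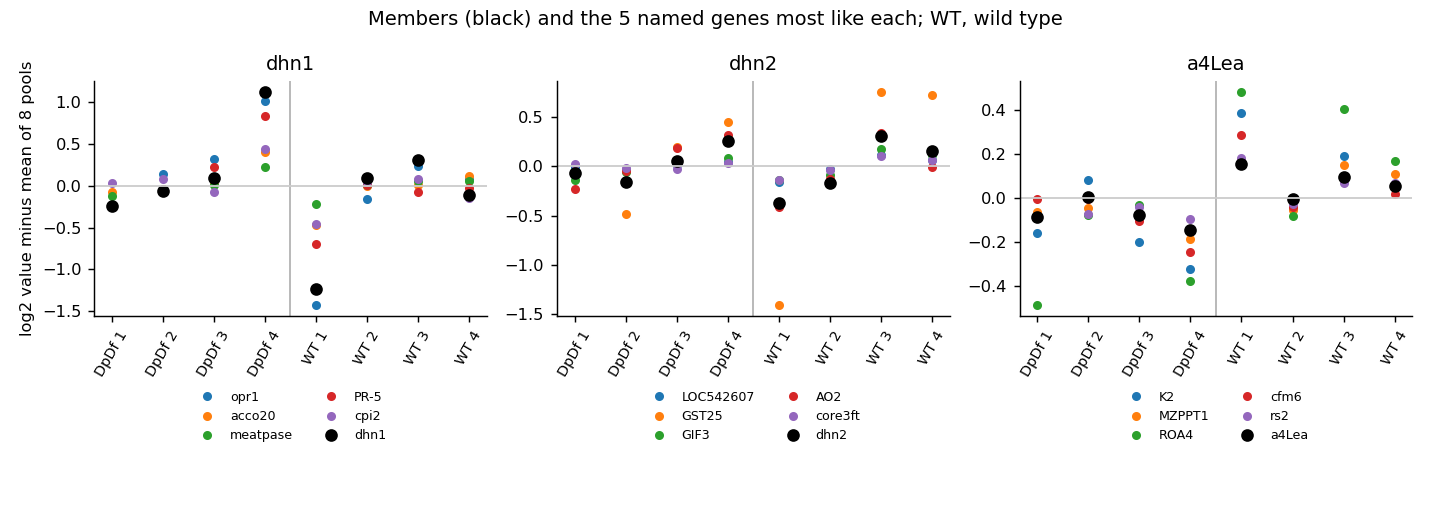
Log2 value minus the mean of 8 pools (vertical axis) in DpDf and wild-type (WT) pools for dhn1, dhn2 and a4Lea (black) and the 5 named genes most like each (colours). The dhn1 panel is stretched by DpDf replicate 4 and wild-type replicate 1, and a4Lea itself lies below 0 in 3 of 4 DpDf pools.

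Other genes of the LEA and ABA-responsive group were compared as well, from lists of symbols that carry no dhn or Lea. Of 5 other LEA and ABA-responsive genes on the array, 2 were bright enough to test and 0 were called in either direction (limma, unadjusted p under 0.05 for 0 of them), with a median log2 difference of 0.05 beside -0.02 over all tested probe sets. asr1, a gene induced by ABA, water stress and ripening, read 4801, 6129, 5210 and 6269 in DpDf pools 1 to 4, against 4585, 6497, 4693 and 6189 in wild-type pools 1 to 4. Its pools grouped by seed source rather than by genotype, and its log2 difference was 0.04 (SE 0.13, limma adjusted p = 0.922). DIP1, which encodes a protein that interacts with DBF1, read 1212, 1147, 1138 and 1127 in DpDf pools 1 to 4, against 1103, 1085, 1098 and 1115 in wild-type pools 1 to 4. These groups did not overlap, as was so for 11.3 percent of tested probe sets, but the difference was only 0.07 (limma adjusted p = 0.532).

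EMB5 and MGL3, LEA genes of other groups, and esp1 lay below the filter. MGL3 read 26.2, 23.1, 23.1 and 30.3 in DpDf pools 1 to 4, against 19.3, 25, 28.1 and 27.4 in wild-type pools 1 to 4, with wild-type replicate 1 lowest as in dhn1. EMB5 read 8.05 to 9.20 in DpDf and 8.18 to 9.33 in wild type. In the limma fit with no filter these 3 differed by -0.08 to 0.05 on the log2 scale, and none was called.

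Of 18 genes of ABA synthesis and signalling, 16 were tested, and 2 were called higher and 0 lower, with a median log2 difference of 0.06. Over all 919 tested named genes, 41 were called higher and 10 lower. cdpk1 (LOC542762), a calcium-dependent protein kinase gene, was higher in DpDf by 0.48 (limma, SE 0.064, adjusted p = 0.00263). It lies in the duplicated segment, as number 38 of 99 tested genes on chromosome 5. Of the 51 segment genes 28 were called higher, against 12 of 834 placed genes outside the segment. The end of the segment was taken from an earlier analysis of these data, so this contrast is not independent of them. PP2C, a protein phosphatase gene on chromosome 4, rose by 0.34 (SE 0.071, limma adjusted p = 0.0242) by its brighter probe set, while its other probe set differed by -0.10. PP2C read 1845, 1975, 1744 and 1596 in DpDf pools 1 to 4, against 1358, 1434, 1473 and 1396 in wild-type pools 1 to 4, with no overlap. The list had 1 call without DpDf replicate 1, 2 or 3 or without wild-type replicate 1 or 4.

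The factors tied to dhn1, named after their values were seen, were not called. dbf1 differed by -0.05 (SE 0.10) and dbf2 by -0.07 (SE 0.077), and neither passed (limma adjusted p = 0.846 and 0.718). vp1, the seed regulator of ABA responses, lay below the filter at 17.6 to 19.2 in DpDf and 18.0 to 18.8 in wild type. vp14, which encodes the cleavage enzyme that starts ABA synthesis from carotenoids, was also below the filter, at 11.6 to 13.1 in DpDf and 10.7 to 13.0 in wild type. AO2, which lies in the segment, differed by 0.11 (SE 0.17, limma adjusted p = 0.806).

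Of 19 water deficit, osmolyte and redox genes, 17 were tested, and 2 were called higher and 0 lower, with a median log2 difference of 0.11. The same fit called 41 higher and 10 lower of the 919 tested named genes. hsp26, a small heat shock protein gene on chromosome 1, read 50.0, 65.5, 68.8 and 56.3 in DpDf pools 1 to 4, against 32.2, 36.0, 46.5 and 35.6 in wild-type pools 1 to 4. It rose by 0.68 (SE 0.14, limma adjusted p = 0.0218). plt2, a phospholipid transfer protein gene, rose by 0.19 (SE 0.046, limma adjusted p = 0.0409). With the replicate block this list had 4 higher and 2 lower calls, against 74 higher and 47 lower over the 919 named genes. The lower ones were adh1, an alcohol dehydrogenase gene (-0.27, adjusted p = 0.0174 with the block), and apx, an ascorbate peroxidase gene (-0.29, adjusted p = 0.0492 with the block), both named after their values were seen. In limma the list had 0 calls without DpDf replicate 2 or 3 or without wild-type replicate 2 or 4, and 1 call without DpDf replicate 4 or without wild-type replicate 1 or 3.

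Of 23 seed maturation genes only 5 were tested, 18 lying below the filter, and 1 was called higher and 0 lower, with a median log2 difference of -0.10. Among all 919 tested named genes, 41 were called higher and 10 lower. The called gene was phytase1, which releases phosphate from phytate; it rose by 0.71 (SE 0.098, limma adjusted p = 0.00308). fie2, a Polycomb group gene, had the next smallest p and differed by -0.16 (SE 0.077, limma adjusted p = 0.323).

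**Figure D5:**
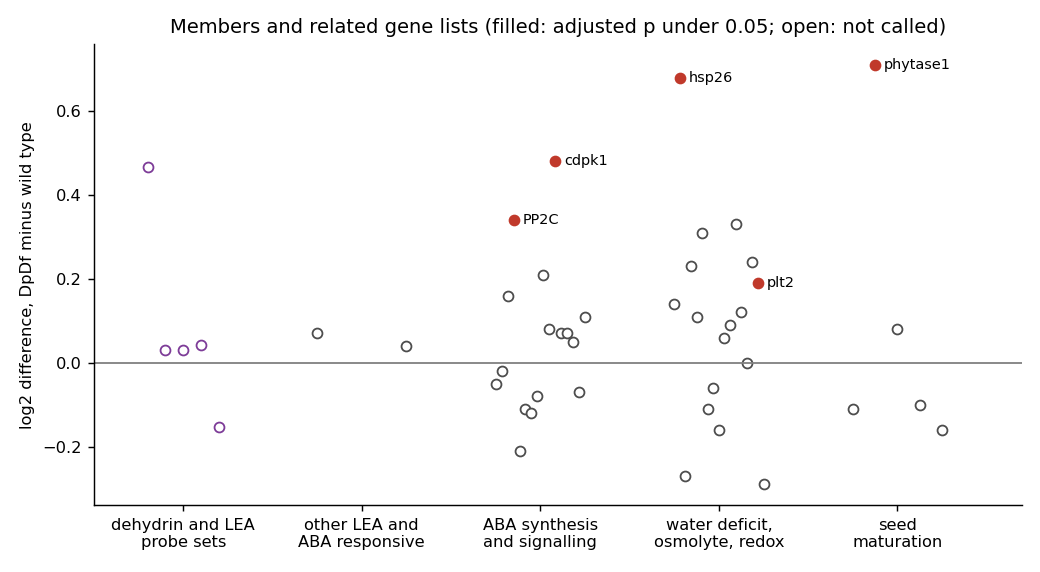
Log2 difference, DpDf minus wild type (vertical axis), of the 5 dehydrin and LEA probe sets (purple outlines) and of each tested gene of 4 related lists (1 point per gene). Filled red points are the 5 named genes with an adjusted p under 0.05 in limma, and open points were not called.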

How the data were processed

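The values deposited by the authors were processed intensity on a linear scale. The submitters' processing notes name MAS5 with no version or role; a scaling target was not found in the sources used. Array medians were nearly equal (135.9 to 142.4), so values were taken to log2 with no further normalization and no pseudocount. The 113 array controls and probe sets whose log2 mean lay below the 30th percentile were left out, which kept 12335. Genes were named through the platform annotation and, by gene number, RefSeq's gene table for Zm-B73-REFERENCE-NAM-5.0, used for names and gene order; 1060 of 1108 genes were found in it. In gene lists, the brightest probe set stood for each gene, and names that turned out to be synonyms of unrelated genes were dropped. The segment on chromosome 5 ended at RPL19, the limit of an earlier analysis of these data.

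DpDf and wild-type pools were compared with limma 3.58.1 in R 4.3.3 (lmFit and eBayes, trend = TRUE), tested on simulated data first. The arrays' number limits the precision. Pools of one replicate number came from the same sibling seedlings, per the labels' protocols, and their deviations from the genotype means correlated at r = 0.36, 0.51, 0.56 and 0.33 for replicates 1 to 4. The planned fit has no block.

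Members, lists and tests were chosen with earlier results of these data known. Named genes are all members, the 5 most like each by Pearson's r, the 2 with the smallest p in the 4 gene lists, and the nearest tested neighbours. Lists were other LEA and ABA-responsive genes, ABA synthesis and signalling, water deficit, osmolyte and redox, seed maturation, and markers of green leaf, meristem, root and seed storage.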

Additional observations from a re-analysis of the deposited data

Results flagged for a closer look

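Among 46 groups of 4 pools examined for 1 outlying pool (the members and the named genes of the lists, each genotype), Dixon's test on log2 values picked out 2, where chance gives about 1 in 20. Both are marker genes in DpDf replicate 1, which was lowest. For rbcs1, its gap to the next pool was 0.966 of the log2 range of DpDf pools, although that range was narrow (an intensity of 15320 to 15500). For kn1 the gap was 0.919 of the log2 range, with an intensity of 142.7 in DpDf replicate 1 against 198.7 to 204.6 in the other DpDf pools. On log2 values no dehydrin or LEA probe set was picked out. On linear intensity, a scale added after seeing the data, the test picked out 3: these same ones and dhn1 in DpDf replicate 4, whose gap was 0.835 of the linear range and 0.755 of the log2 range.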

How the results depend on the processing

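No dehydrin or LEA probe set was called under any alternative. dhn1 stayed higher in DpDf under the 18 alternatives that measured it (0.33 to 0.71, and 0.13 to 0.65 leaving out 1 pool); the filter at the 50th percentile left it out. a4Lea stayed lower in 19 alternatives (-0.21 to -0.10, and -0.18 to -0.13 leaving out 1 pool), and its adjusted p ran from 0.191 to 0.873. dhn2 had no stable sign: leaving out 1 pool gave -0.094 to 0.123 for Zm.4870.1.A1_a_at, -0.097 to 0.139 for Zm.4870.1.A1_x_at and -0.075 to 0.151 for Zm.4870.2.S1_a_at, and seed source 49647-3self alone gave -0.0019 for Zm.4870.1.A1_x_at.

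Counts of calls moved more. All probe sets called numbered 1253 with the replicate block, 309 with the 3' minus 5' covariate, 32 in seed source 49646-1self alone, 1 in 49647-3self alone, and 389 to 643 leaving out 1 pool, lowest without wild-type replicate 4. With either seed source alone the lists had 0 calls. The ABA synthesis list had 1 call with the covariate and 1 to 2 leaving out 1 pool. The water deficit list had 6 calls with the replicate block, 1 with no filter, with the filter at the 50th percentile, without the variance trend or with the covariate, and 0 to 2 leaving out 1 pool. The replicate block changed no call of a member or of the other LEA, ABA synthesis and seed maturation lists, but it added 2 higher calls among green leaf markers and 2 lower ones among shoot meristem markers. The cause of these changes was not tested. The fits of a single seed source and those leaving out 1 pool had fewer pools, while the other alternatives used all 8. Of the 8 dhn1 pools, 1 lay below the filter value of 27.0.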
